A study of Mus musculus with 23 samples.

Results

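The response of fibroblasts to serum was followed in RNA made during the response itself. The comparison covers 8 of the 23 arrays of the series, chosen by their titles: newly transcribed RNA of serum treated cells (4 arrays) against newly transcribed RNA of serum starved cells (4 arrays), paired by the replicate number in the title. The cells were primary mouse embryonic fibroblasts (MEF), connective tissue cells, taken from embryos of age e14.5. Both groups carried the same labelled genotype, C57/BLACK6 and ATF1 -/+, so the starved cells were also heterozygous for this transcription factor of the CREB family, and no wild-type cells entered the comparison. Treated cells were held for 48 h in 1% serum and then given 10% serum for 2 h, whereas starved cells were held for the same 48 h and kept in 1% serum for those 2 h. Both groups had 200 µM 4-thiouridine and tritiated cytidine in the medium during the 2 h. The other 15 arrays carried total RNA (8) and amplified total RNA (7) of the same 2 conditions, and their values stand beside the results where they bear on them.

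Cells use 4-thiouridine in place of uridine as they transcribe RNA, so that RNA made while it is present carries a thiol group and can be captured, here on an organomercurial matrix. A level measured in the captured RNA follows what was transcribed and survived within the labelling window, while total RNA also holds all messages made before. Serum carries growth factors and lipids that start kinase cascades through receptors of fibroblasts, and these act first on transcription factors already present, such as serum response factor (SRF) and its partners. The first genes to respond, the immediate early genes, encode transcription factors themselves, and others encode secreted ligands, feedback inhibitors and parts of the actin cytoskeleton. Starved cells hold genes of growth arrest active, many of them under FOXO factors, and serum is known to shut these down.

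Each level below is log2 of the quantile normalised intensity plus 16, so that an intensity of 0 has the level 4, and each change is the level in treated minus starved cells, given ± the standard error of the fit. Changes of dim genes are understated on this scale. In all, 12422 probe sets were tested with limma, with the replicate pair as a block, and those with an adjusted p below 0.05 are described as called, or as having risen or fallen. A gene stands for a symbol that was the only one of its probe set, and its brightest probe set speaks for it, which gave 8251 genes. The titles call the replicates biological and do not say what arrays of 1 number share. The p-values of the paired fit measure how much the treated minus starved differences vary between these pairs, not the spread between single arrays. In bulk RNA, fewer cells of a type and less RNA per cell cannot be told apart.

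The arrays differed in brightness and from pair to pair. Median deposited intensities were 24.2, 44.35, 46.9 and 34.4 on treated arrays 1 to 4 and 43.9, 54, 72.05 and 28.5 on starved arrays 1 to 4, so that the treated array was the dimmer one in pairs 1 to 3. Quantile normalisation removes this: over all genes the median change with values as deposited was −0.25, with 23.4% of genes positive, against −0.01 and 48.2% after normalisation, and medians of gene lists on both scales are given below. Same-numbered arrays deviated together, with correlations of 0.80, 0.80, 0.76 and 0.70 for pairs 1 to 4, and many genes had one level in pairs 1 and 4 and another in pairs 2 and 3. Actb, cytoplasmic beta actin, showed this plainly: its level was 10.15, 5.36, 5.83 and 11.78 on treated arrays 1 to 4 and 10.90, 6.46, 6.50 and 11.68 on starved arrays 1 to 4. The distance between 3′ and 5′ control probe sets, a sign of RNA integrity and of the length of the amplified copies, was 2.08 ± 0.86 log2 units for Gapdh on treated arrays and 2.24 ± 0.46 on starved arrays (SD, n = 4 each), a difference of −0.16 (exact permutation test over pairs, two-sided p = 0.625; with 4 pairs this test cannot reach 0.05). Its part in the results was not tested.

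Collagen markers of the labelled cell type were among the brightest genes. Of 15 measured fibroblast markers 1 rose and 1 fell, 5 had a positive change and the median was −0.14, and the list summed to 11072 to 18437 intensity units on treated arrays and 12548 to 19918 on starved arrays. The collagen genes Col1a2, Col5a2 and Col1a1 lay at 11.63, 11.45 and 10.48 in treated cells and 11.86, 11.53 and 10.29 in starved cells, while Vim, the intermediate filament gene vimentin, lay at only 5.58 and 5.34. Macrophage markers were also present: Cd14 lay at 10.72 in treated and 9.88 in starved cells, Ctss at 9.99 and 10.17, and Lyz2 at 9.40 and 8.95, while Itgam and Aif1 lay near the floor (4.26 and 4.26 in treated cells, 4.17 and 4.18 in starved cells). The 18 measured macrophage markers summed to 5088 to 10948 intensity units on treated arrays and 3109.7 to 8438 on starved arrays, 14 of the 18 had a positive change, their median was 0.20, and 0 of 18 were called. Their part in the results was not tested. Single genes picked for other types lay close to the floor. These were Cdh5 of endothelium (4.15 in treated and 4.23 in starved cells) and Epcam of epithelium (4.26 and 4.12). Des of muscle (4.51 and 4.49) and Snap25 of neurons (4.10 and 4.10) did so too. Other markers lay higher, among them Myod1 of muscle and Nes of the neural list, both described below. Flt1 of the endothelial list lay at 7.1 in treated and 6.2 in starved cells. Its change of 0.88 ± 0.23 was not called (adjusted p = 0.0981), but passed the threshold when dim probe sets were left out of the test (adjusted p = 0.0302). The low levels of the picked genes therefore do not show that these types were absent. The 11 endothelial markers summed to 500 to 754 intensity units on treated arrays and 335 to 536 on starved arrays. For the 12 epithelial markers the sums were 151 to 165 and 91.8 to 138. For the 15 muscle markers they were 441 to 1216 and 272 to 372. The part of these types was not tested.

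Serum changed the newly transcribed RNA of 216 probe sets, which is 1.74% of those tested. Of these, 113 rose (0.910%) and 103 fell (0.829%). Every one of the 216 moved the same way in all 4 pairs, as 28.3% of all probe sets did, and in 90 of the 216 the treated and starved arrays did not overlap at all, as in 3.82% of all probe sets. Changes of at least 2-fold were made up of 68 rises and 31 falls. Taken by gene, 174 were called (2.11% of genes), of which 89 rose (1.08%) and 85 fell (1.03%). The calls rest on the pairing and on all 4 pairs: without the replicate block 0 probe sets were called (800 had an unadjusted p below 0.05, against 2691 with the block, and the smallest adjusted p was 0.0895), and leaving out pair 1, 2, 3 or 4 gave 25, 1, 0 and 0 calls, where 18 of the 25 and the 1 were among the 216.

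**Figure D1:**
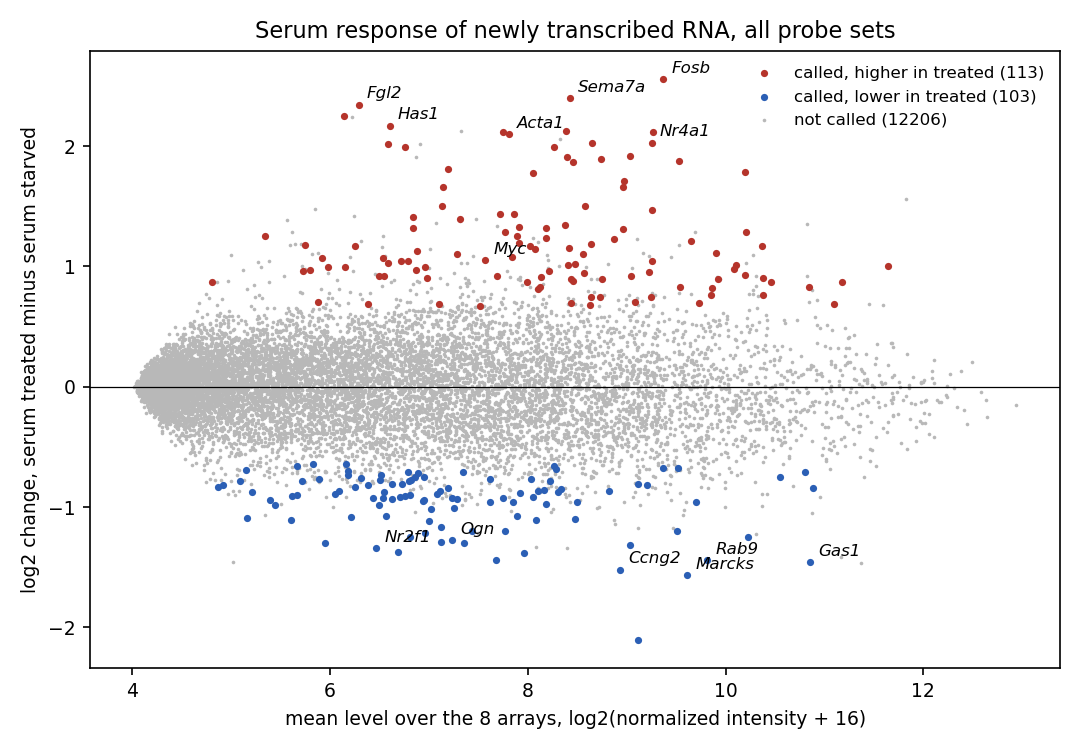
Each point is 1 probe set, with its mean level over the 8 arrays on the horizontal axis (log2 of normalised intensity plus 16) and its log2 change, serum treated minus serum starved, on the vertical axis. The 113 probe sets called higher are red, the 103 called lower are blue and the other 12206 are grey; Fosb lies highest at 2.56, and the lowest blue point at −2.10 is a probe set with no gene name in the annotation used.

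Genes of the AP-1 family and its relatives encode leucine zipper transcription factors that bind DNA in pairs. Of 18 measured members, 6 rose in treated cells and 0 fell, 14 had a positive change, and the median change was 0.48 (0.12 with values as deposited). Fosb, a subunit that pairs with JUN proteins, had levels of 10.44, 10.87, 10.82 and 10.47 on treated arrays 1 to 4, against 7.69, 9.42, 7.77 and 7.47 on starved arrays 1 to 4. All treated arrays lay above all starved ones, and starved array 2 stood well above the other starved arrays. The change was 2.56 ± 0.28 (5.89-fold, adjusted p = 0.0261), the largest among called genes. Fosl1, the Fra-1 subunit, rose by 1.78 ± 0.20 and was higher in pairs 2 and 3 than in pairs 1 and 4 in both conditions. Junb rose by 1.34 ± 0.17 and Nfil3, a leucine zipper repressor, by 1.25 ± 0.18. Maff, a small MAF protein without an activation domain, also rose by 1.25 ± 0.17 and lay close to the floor, with means of 5.97 in treated and 4.71 in starved cells. Cebpb, a factor of the C/EBP family, rose by 0.98 ± 0.14.

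Fos and Jun, the founding members of AP-1, were not among the genes called. Fos had levels of 10.88, 10.19, 9.14 and 11.14 on treated arrays 1 to 4, against 9.35, 8.42, 8.94 and 9.51 on starved arrays 1 to 4. Treated arrays were higher in all 4 pairs, but treated array 3 lay among the starved arrays. The change was 1.28 ± 0.27 (adjusted p = 0.0725), and it passed the threshold when the probe sets with a mean intensity below 50 were left out of the test (adjusted p = 0.0132). Jun had a mean level of 9.68 ± 0.34 in treated and 9.68 ± 0.26 in starved cells (SD, n = 4 each), with 2 pairs up and 2 down. Its change of −0.00 ± 0.20 turned to 0.06 without pair 2, to 0.19 without pair 3 and to 0.024 with arrays scaled to 1 median.

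Other immediate early genes, among them zinc finger factors and nuclear receptors, gave 5 rises and 0 falls in 25 measured members, of which 19 had a positive change, with a median of 0.34. With values as deposited, 13 of the 25 were positive and the median was 0.03. Nr4a1, an orphan nuclear receptor, had levels of 10.70, 10.27, 10.51 and 9.58 on treated arrays 1 to 4, against 7.83, 8.64, 8.87 and 7.61 on starved arrays 1 to 4. The groups did not overlap, and pair 1 had the widest gap. The change was 2.03 ± 0.22 (4.08-fold, adjusted p = 0.0261). Phlda1, which encodes a pleckstrin homology-like protein, rose by 1.99 ± 0.21, Egr2, a zinc finger factor, by 1.28 ± 0.14 and Klf5, a Krüppel-like factor, by 1.07 ± 0.17.

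Myc, a driver of growth and ribosome production, had levels of 8.29, 7.95, 8.47 and 7.67 on treated arrays 1 to 4, against 7.19, 7.0, 7.43 and 6.55 on starved arrays 1 to 4. Every treated array lay above every starved array, and the 4 pairs had nearly the same gap. Myc rose by 1.05 ± 0.11 (2.07-fold, adjusted p = 0.0261). Egr1, the best known zinc finger gene of the serum response, had levels of 11.39, 9.26, 9.58 and 11.34 on treated arrays 1 to 4, against 10.60, 8.15, 9.73 and 9.51 on starved arrays 1 to 4. The groups overlapped, and pair 3 went the other way. Its change of 0.90 ± 0.30 was not called (adjusted p = 0.157).

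**Figure D2:**
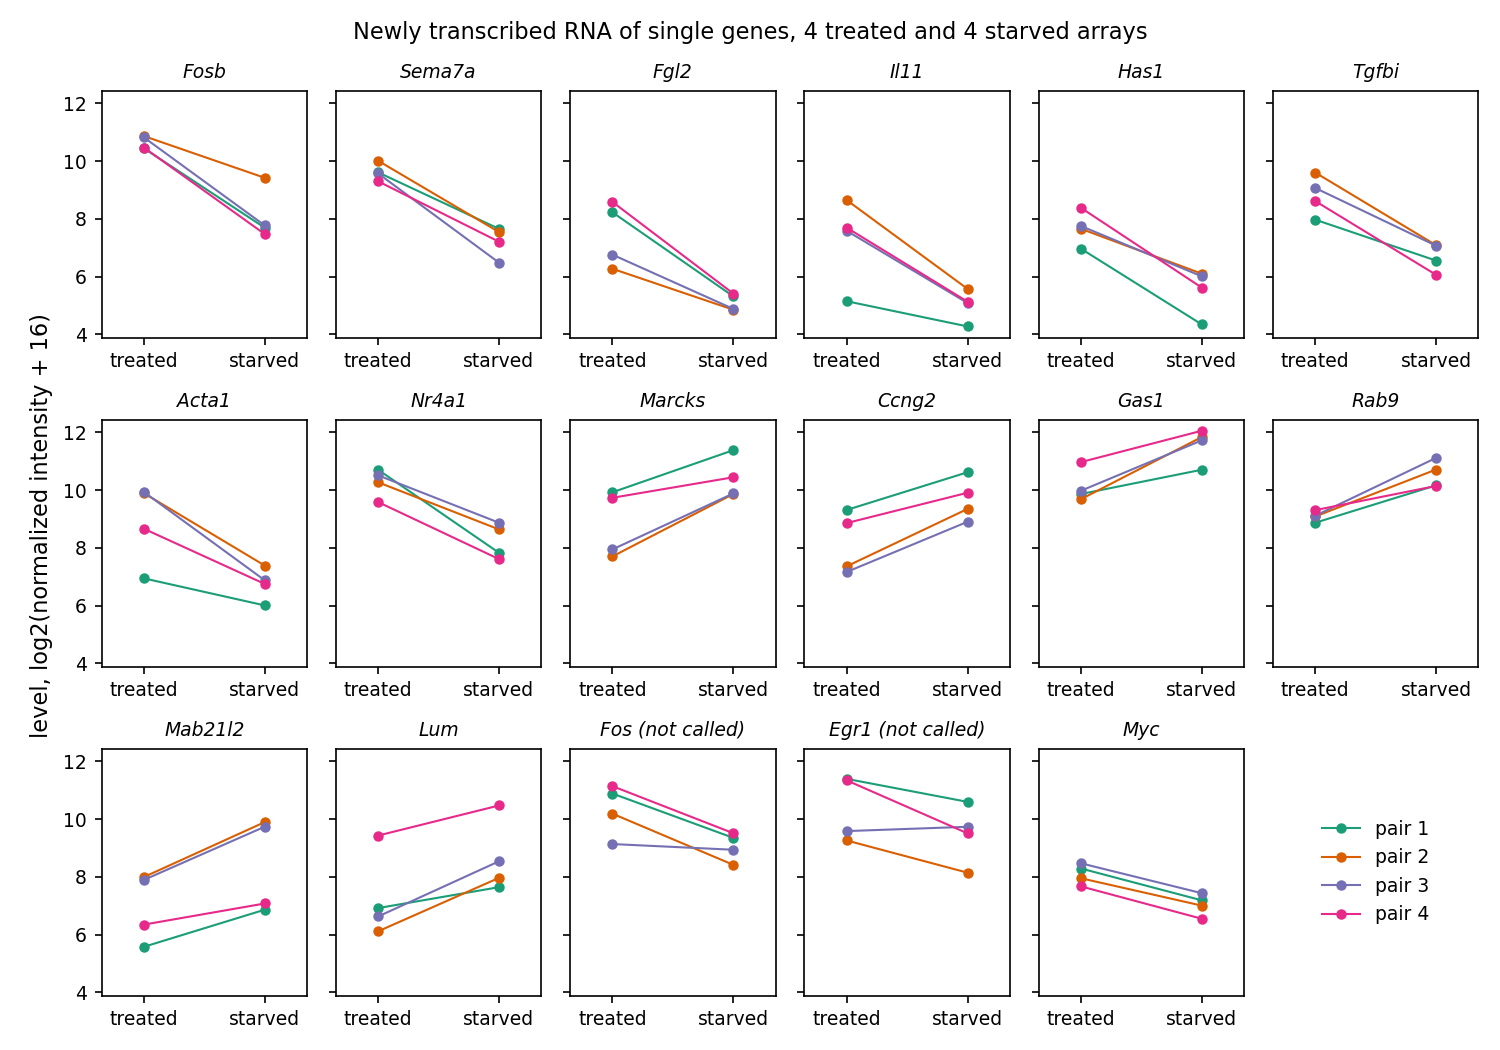
Levels in newly transcribed RNA on each array (vertical axis, log2 of normalised intensity plus 16) for the 8 largest rises, the 6 largest falls and for Fos, Egr1 and Myc; treated arrays are on the left of each panel, starved arrays on the right, and a line joins arrays of 1 replicate number. Lines of called genes all slope the same way within a panel, while the line of pair 3 runs opposite to the others for Egr1.

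Start sites are shown for 5 induced genes of the transcription factor lists and for 2 of the largest falls, chosen by the size of their change. Shared control of these genes was not tested. They are the largest such changes among genes with a window in the RefSeq table used; Fosl1, Phlda1 and Marcks are not shown. Each window runs from 250 bases before to 50 bases after a RefSeq transcript start in GRCm38.p6, is written 5′ to 3′ in the direction of the gene, and has in capitals every match, on either strand, to 8 motifs. These were the AP-1 site TGACTCA, the cAMP response element TGACGTCA, the EGR site GCGTGGGCG, the E-box CACGTG, the CCAAT box CCAAT, the TATA box TATAAA, the GC box GGGCGG and the CArG box bound by SRF. The windows are chr7:19309996-19310295 on the minus strand for Fosb, chr15:101266596-101266895 on the plus strand for Nr4a1, chr8:84978699-84978998 on the minus strand for Junb, chr10:67537316-67537615 on the plus strand for Egr2, and chr15:79347270-79347569 on the plus strand for Maff. For the genes that fell they are chr5:93267323-93267622 on the plus strand for Ccng2 and chr13:60177486-60177785 on the minus strand for Gas1.
Fosb: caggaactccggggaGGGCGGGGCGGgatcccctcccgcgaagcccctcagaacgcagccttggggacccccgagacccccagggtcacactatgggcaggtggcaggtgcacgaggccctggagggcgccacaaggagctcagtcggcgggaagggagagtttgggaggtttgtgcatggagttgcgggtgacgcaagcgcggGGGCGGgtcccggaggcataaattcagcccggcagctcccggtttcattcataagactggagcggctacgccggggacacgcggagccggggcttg
Nr4a1: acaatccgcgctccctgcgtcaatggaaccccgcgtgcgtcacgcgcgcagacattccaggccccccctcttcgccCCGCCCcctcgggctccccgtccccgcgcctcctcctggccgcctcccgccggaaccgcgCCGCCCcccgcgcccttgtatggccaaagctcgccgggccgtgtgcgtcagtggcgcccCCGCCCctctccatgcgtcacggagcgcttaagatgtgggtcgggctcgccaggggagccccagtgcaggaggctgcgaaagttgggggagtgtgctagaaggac
Junb: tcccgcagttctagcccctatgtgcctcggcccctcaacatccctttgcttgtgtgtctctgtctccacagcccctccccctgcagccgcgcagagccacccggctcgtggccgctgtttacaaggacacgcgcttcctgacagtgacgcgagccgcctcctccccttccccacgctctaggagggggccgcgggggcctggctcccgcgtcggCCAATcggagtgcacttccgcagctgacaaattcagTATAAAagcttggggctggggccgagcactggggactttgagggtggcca
Egr2: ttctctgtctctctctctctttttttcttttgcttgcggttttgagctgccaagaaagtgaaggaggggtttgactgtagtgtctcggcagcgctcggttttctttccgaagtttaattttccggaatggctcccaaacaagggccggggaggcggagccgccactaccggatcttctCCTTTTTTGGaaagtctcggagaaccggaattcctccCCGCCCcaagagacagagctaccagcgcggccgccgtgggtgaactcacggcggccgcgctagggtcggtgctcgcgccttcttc
Maff: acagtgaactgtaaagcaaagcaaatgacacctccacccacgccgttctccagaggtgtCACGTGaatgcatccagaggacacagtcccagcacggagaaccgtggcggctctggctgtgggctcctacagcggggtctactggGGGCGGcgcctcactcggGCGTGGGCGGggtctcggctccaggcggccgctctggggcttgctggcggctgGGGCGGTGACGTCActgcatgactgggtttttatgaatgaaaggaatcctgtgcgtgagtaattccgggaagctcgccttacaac
Ccng2: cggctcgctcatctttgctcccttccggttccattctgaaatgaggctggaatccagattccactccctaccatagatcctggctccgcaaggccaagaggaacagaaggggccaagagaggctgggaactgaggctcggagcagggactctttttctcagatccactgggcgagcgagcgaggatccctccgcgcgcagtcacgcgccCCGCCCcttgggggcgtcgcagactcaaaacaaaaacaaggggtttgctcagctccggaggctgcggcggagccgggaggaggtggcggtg
Gas1: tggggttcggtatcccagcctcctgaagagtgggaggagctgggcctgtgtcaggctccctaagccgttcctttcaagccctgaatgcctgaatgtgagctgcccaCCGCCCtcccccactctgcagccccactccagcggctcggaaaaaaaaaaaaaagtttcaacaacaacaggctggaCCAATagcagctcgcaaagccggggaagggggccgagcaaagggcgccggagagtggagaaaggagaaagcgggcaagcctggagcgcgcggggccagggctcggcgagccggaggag

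The capitals mark GC boxes alone in the windows of Fosb, Nr4a1 and Ccng2, where those of Nr4a1 and Ccng2 read CCGCCC because they lie on the opposite strand, and 2 of the GC boxes of Fosb overlap. Egr2 holds a CArG box 72 to 63 bases before the start and a GC box on the opposite strand. In Maff the capitals run from an E-box through GC boxes and an EGR site, which overlaps 1 GC box, to a cAMP response element at 29 to 22 bases before the start. Junb holds a CCAAT box and a TATA box, the TATA box at the annotated start itself, and Gas1 a GC box and a CCAAT box. Among all 32851 RefSeq windows of this length, 35.7% hold a GC box, 37.4% a CCAAT box, 13.6% a TATA box, 7.15% an E-box, 5.20% an AP-1 site, 1.79% a cAMP response element, 1.63% a CArG box and 0.612% an EGR site. Among the 8408 windows of measured genes, which covered 6572 of the 8251 genes (79.7%), 57.1% hold a GC box, 37.0% a CCAAT box, 9.98% a TATA box, 9.55% an E-box, 4.45% an AP-1 site, 2.60% a cAMP response element, 1.59% a CArG box and 0.987% an EGR site. Only 65 of the 89 genes that rose had a window (73.0%), too few for a check of their motifs, and no share is given for them. RefSeq gives 5 starts for Egr2 and 3 for Maff, and 1 of each is shown, picked with the matches known. Of the other 4 windows of Egr2, 3 hold a CArG box and a CCAAT box and 1 holds GC boxes and an E-box without a CArG box. Those 3 windows overlap and hold the same CArG box and the same CCAAT box. Of the other 2 windows of Maff, 1 holds a single GC box and 1 none of the motifs.

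The secreted and membrane-bound ligands included 3 of the 15 largest rises, Sema7a, Il11 and Inhba. Of 52 growth factor and cytokine ligands, 6 rose and 0 fell, with 31 positive changes and a median of 0.13 that became −0.09 with values as deposited. Sema7a, a semaphorin anchored in the membrane that signals through integrins, had levels of 9.61, 10.01, 9.57 and 9.30 on treated arrays 1 to 4, against 7.65, 7.54, 6.48 and 7.21 on starved arrays 1 to 4. The groups were far apart in every pair. Sema7a rose by 2.40 ± 0.20 (5.28-fold, adjusted p = 0.0233). Il11, a cytokine of the IL-6 family, had levels of 5.15, 8.65, 7.59 and 7.69 on treated arrays 1 to 4, against 4.28, 5.58, 5.09 and 5.13 on starved arrays 1 to 4. It was higher with serum in all pairs, though treated array 1 lay below starved array 2. The change was 2.25 ± 0.34 (4.76-fold, adjusted p = 0.0415).

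Ligands of the EGF receptor and of activin and PDGF signalling were among the rest. Inhba, which encodes the activin A subunit, rose by 1.91 ± 0.31 and was far higher in pairs 1 and 4 (treated 12.25 and 11.45) than in pairs 2 and 3 (treated 8.20 and 8.07). Hbegf, the heparin-binding EGF-like factor, rose by 1.78 ± 0.30 and Ereg, epiregulin, by 1.71 ± 0.11. Ereg did not overlap between groups (means of 9.83 ± 0.20 in treated and 8.12 ± 0.24 in starved cells, SD, n = 4 each). Pdgfa, a chain of platelet-derived growth factor, rose by 0.95 ± 0.16. On the receiving side, 1 of 58 receptors rose and 0 fell: Il4ra, the receptor of IL-4, by 0.89 ± 0.12. The 20 chemokines gave no call in either direction, where 2.11% of all genes were called. The one with the smallest p, Ccl3, had a change of −0.92 ± 0.16 (adjusted p = 0.0503).

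Inhibitors that act back on the same pathways rose as well. Of 33 feedback regulators, 7 rose and 0 fell, 26 had a positive change and the median was 0.40. With values as deposited, 19 of the 33 were positive and the median was 0.04. Rgs16, which speeds up the shut-off of G proteins, rose by 1.87 ± 0.12 and had one of the smallest adjusted p-values of all (0.0140). The cytokine feedback genes Socs2, Cish and Socs3, whose proteins bind cytokine receptors and JAK kinases, rose by 1.47 ± 0.24, 1.41 ± 0.22 and 1.31 ± 0.18. Errfi1, an inhibitor of the EGF receptor, was bright in both groups (12.14 in treated and 11.14 in starved cells) and rose by 1.01 ± 0.12. Smad7, which blocks TGF-beta receptors, rose by 0.75 ± 0.11 and the adaptor gene Sh2b3 by 0.67 ± 0.11.

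Among kinases and small GTPases known to respond to serum, 1 of 30 rose, Map2k3, an activator of p38 kinases, by 0.76 ± 0.10. No member of the NF-kB list of 25 was called, where 2.11% of all genes were. Bcl3, a nuclear cofactor of NF-kB, came nearest at 1.08 ± 0.23 (adjusted p = 0.0734, and 0.0159 without dim probe sets). Genes that control message decay gave 3 rises and 1 fall in 29. Zfp36, tristetraprolin, which marks AU-rich messages for decay, rose by 1.33 ± 0.16. Btg2, which recruits deadenylases, rose by 0.90 ± 0.15 and Noct, nocturnin, by 0.87 ± 0.14, whereas Pnrc2, a partner of the decapping machinery, fell by 0.84 on the log2 scale (± 0.14).

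Of 50 genes of the actin cytoskeleton and known SRF targets, 5 rose and 0 fell, 44 had a positive change and the median was 0.40. With values as deposited, 33 of the 50 were positive and the median was 0.11. Acta1, skeletal alpha actin and a classical SRF target, had levels of 6.94, 9.89, 9.93 and 8.66 on treated arrays 1 to 4, against 6.01, 7.39, 6.88 and 6.75 on starved arrays 1 to 4. The gap was narrow in pair 1 and wide in pairs 2 and 3, and treated array 1 lay below starved array 2. Acta1 rose by 2.10 ± 0.33 (4.29-fold, adjusted p = 0.0417). It is also 1 of the 15 muscle markers, none of which but Acta1 was called, with Ckm at 4.60 in treated and 5.02 in starved cells and Myod1 at 5.89 and 5.66. Tpm3, a tropomyosin, rose by 1.08 ± 0.12, Tagln2 by 0.82 ± 0.12, Cfl1, the actin-severing protein cofilin, by 0.74 ± 0.11 and Tagln, the smooth muscle protein transgelin, by 0.69 ± 0.10. Tagln, Tagln2 and Cfl1 were each higher in pairs 2 and 3 than in pairs 1 and 4 by more than they changed with serum. The change of Actb was −0.61 ± 0.20 (adjusted p = 0.158).

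Proteins of cell contacts gave 4 rises and 0 falls in 49 measured genes, with a median of 0.06 that became −0.11 with values as deposited. Pkp1, a plaque protein of desmosomes, rose by 1.99 ± 0.21, Gjb2, the gap junction protein connexin 26, by 1.89 ± 0.21, Cd44, a receptor of hyaluronan, by 1.40 ± 0.11 and Jup, plakoglobin, by 1.13 ± 0.17. Pkp1, Gjb2 and Cd44 did not overlap between treated and starved arrays. Thy1, a surface protein used as a fibroblast marker, rose by 1.04 ± 0.12, and Nes, an intermediate filament gene listed here as a neural marker, by 1.43 ± 0.18, while the other 11 measured neural markers were not called. The 12 measured neural markers summed to 753 to 2535 intensity units on treated arrays and 650.2 to 1716 on starved arrays.

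Of 22 genes of hyaluronan and matrix proteoglycans, 3 rose and 3 fell, and the median was −0.08 (−0.41 with values as deposited). Has1, a hyaluronan synthase, had levels of 6.97, 7.65, 7.75 and 8.38 on treated arrays 1 to 4, against 4.34, 6.10, 6.01 and 5.62 on starved arrays 1 to 4. Starved array 1 was near the floor, and no treated array reached down to the starved ones. Has1 rose by 2.17 ± 0.23 (4.50-fold, adjusted p = 0.0261), Has2, a second synthase, by 1.01 ± 0.16, and the hyaluronan receptor gene Cd44 as given above. Lum, lumican, a proteoglycan that spaces collagen fibrils, had levels of 6.92, 6.12, 6.63 and 9.43 on treated arrays 1 to 4, against 7.64, 7.96, 8.54 and 10.47 on starved arrays 1 to 4. It was lower with serum in all pairs, and pair 4 lay far above the others in both conditions. Lum fell by 1.38 on the log2 scale (± 0.23, adjusted p = 0.0461), Ogn, osteoglycin of the same family, by 1.27 (± 0.15) and Papss1, which makes the sulfate donor for proteoglycans, by 1.12 (± 0.11).

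Matricellular proteins and pericellular proteases gave 6 rises and 1 fall in 41 genes, with a median of 0.07 that became −0.10 with values as deposited. Fgl2, a fibrinogen-like protein that can activate prothrombin, had levels of 8.23, 6.27, 6.76 and 8.59 on treated arrays 1 to 4, against 5.32, 4.86, 4.88 and 5.41 on starved arrays 1 to 4. Pairs 1 and 4 had the widest gaps, and the groups did not overlap. Fgl2 rose by 2.34 ± 0.30 (5.08-fold, adjusted p = 0.0307). Tgfbi, a secreted adhesion protein induced by TGF-beta, had levels of 7.97, 9.60, 9.07 and 8.61 on treated arrays 1 to 4, against 6.55, 7.09, 7.07 and 6.06 on starved arrays 1 to 4. Again no starved array reached the treated ones. Tgfbi rose by 2.12 ± 0.21 (4.35-fold, adjusted p = 0.0261).

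In the same list Plaur, the urokinase receptor, rose by 1.66 ± 0.12, the metalloprotease gene Adam8 by 1.19 ± 0.19, F3, tissue factor of blood clotting, by 0.87 ± 0.13 and Tnc, tenascin C, by 0.76 ± 0.13. Ctsk, the collagen-degrading protease cathepsin K, fell by 0.87 on the log2 scale (± 0.12). Structural matrix gave 2 rises and 0 falls in 46 genes, and both encode chains of collagen VI: Col6a2 rose by 0.87 ± 0.15 and Col6a1 by 0.71 ± 0.11. They lie next to each other on chromosome 10. Among 3649 pairs of neighbouring measured genes, 1 other pair had both members called, Hk2 and Sema4f on chromosome 6, and these rose too.

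Calls among genes of metabolism and stress went in both directions in the lists of glucose use and of antioxidants. Slc2a1, the glucose transporter GLUT1, rose by 1.28 ± 0.16 and Hk2, a hexokinase, by 1.14 ± 0.16, while Pgm1, a phosphoglucomutase, fell by 0.87 on the log2 scale (± 0.15), which made 2 rises and 1 fall in 27 genes of glucose use. Of 44 antioxidant genes, Srxn1, sulfiredoxin, rose by 1.91 ± 0.21 and Hmox1, heme oxygenase 1, by 1.11 ± 0.13, whereas Mgst1, a microsomal glutathione transferase, and Ephx1, an epoxide hydrolase, fell by 0.93 (± 0.14) and 0.78 (± 0.13). Ptgs2, the inducible cyclooxygenase, rose by 1.88 ± 0.21 and was the 1 call in 18 prostaglandin genes. Dnajb4 (1.11 ± 0.11) and Hspa1b (0.70 ± 0.11) rose among 49 heat shock and chaperone genes, where Hspa1b has a near-identical copy that probes may not tell apart. Odc1, the first enzyme of polyamine synthesis and a MYC target, rose by 0.74 ± 0.11, the 1 call in 55 genes of ribosome biogenesis and MYC, and Rpl10a by 0.83 ± 0.14, the 1 call in 36 cytosolic ribosomal proteins. Gbp2, a guanylate-binding protein, rose by 0.97 ± 0.15 among 40 interferon response genes.

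**Figure D3:**
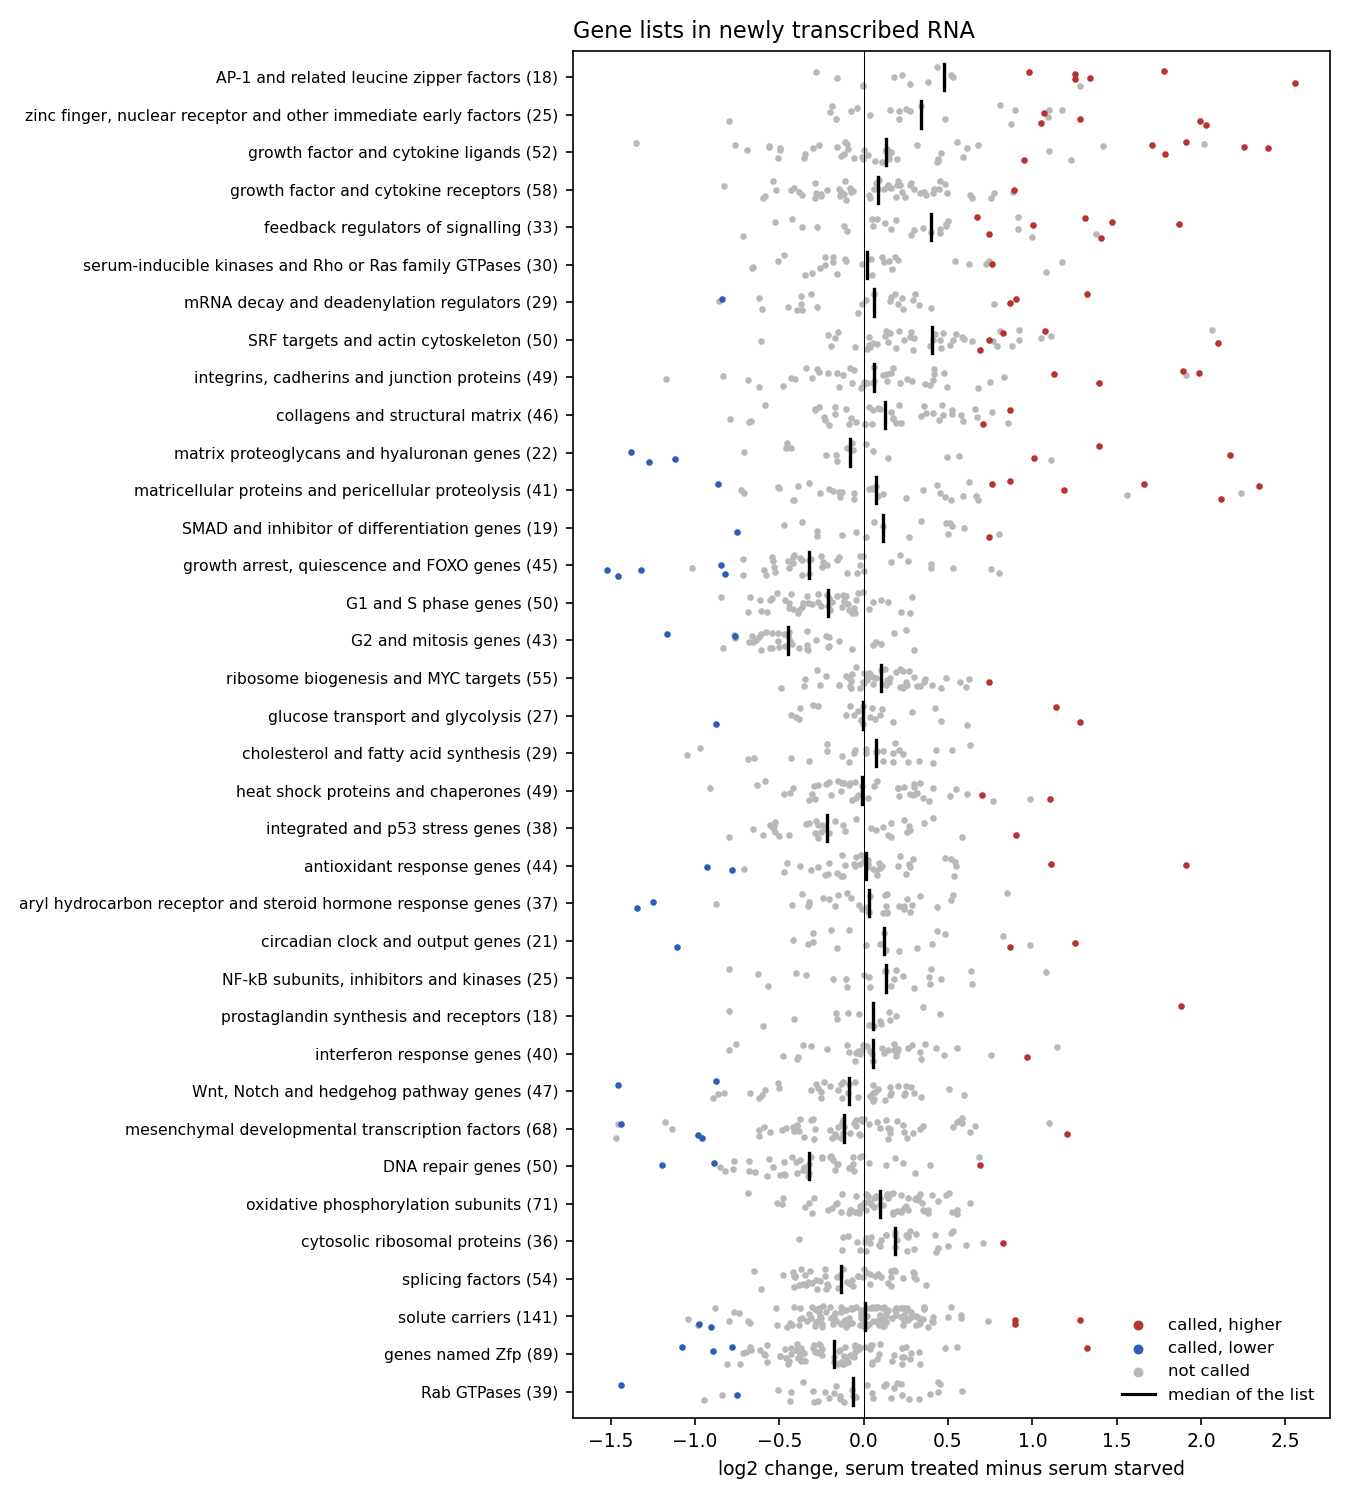
Each row is a gene list with the number of measured members, each point a gene at its log2 change in newly transcribed RNA (horizontal axis, serum treated minus serum starved), and each black bar the median of the list; red and blue points were called higher and lower. The lists of AP-1 and other immediate early factors, feedback regulators and the actin cytoskeleton have medians of 0.34 to 0.48. Mesenchymal developmental transcription factors have a median of −0.12. The medians of growth arrest, G1 and S phase, G2 and mitosis and DNA repair lie between −0.45 and −0.21. Chemokines, proteasome genes, ubiquitin enzymes and proteases, Hox genes and mitochondrial ribosomal proteins are not drawn.

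Of 45 measured genes of growth arrest, quiescence and FOXO control, 0 rose and 5 fell in treated cells, 9 had a positive change, and the median was −0.33 (−0.67 with values as deposited). Ccng2, an unconventional cyclin known as a FOXO target, had levels of 9.31, 7.36, 7.17 and 8.86 on treated arrays 1 to 4, against 10.62, 9.35, 8.90 and 9.91 on starved arrays 1 to 4. It was lower with serum in every pair, and the ranges overlapped because pairs 1 and 4 were brighter than pairs 2 and 3. Ccng2 fell by 1.52 on the log2 scale (± 0.18, adjusted p = 0.0261). Gas1, a membrane protein first found in growth-arrested fibroblasts, had levels of 9.86, 9.69, 9.98 and 10.97 on treated arrays 1 to 4, against 10.71, 11.84, 11.72 and 12.05 on starved arrays 1 to 4. Starved arrays were higher in all pairs, but treated array 4 lay above starved array 1. Gas1 fell by 1.46 (± 0.23, adjusted p = 0.0419). Gas2, a binder of actin filaments and microtubules, fell by 1.32 (± 0.18), Bcl6, a transcriptional repressor under FOXO control, by 0.85 (± 0.12) and Irs1, the insulin receptor substrate, by 0.82 (± 0.11). Irs1 lay near the floor, with means of 4.50 in treated and 5.32 in starved cells.

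No gene of the cell cycle lists was called higher at 2 h. With 1.08% of all genes called higher and 1.03% lower, lists of this size hold few or no calls at that share. Of 50 genes of G1 and S phase, 0 were called in either direction and 7 had a positive change, with a median of −0.21, and Mcm2, a helicase subunit, had the smallest p with a change of −0.56 ± 0.10 (adjusted p = 0.0577). Ccnd1, cyclin D1, had a change of −0.25 ± 0.19 (adjusted p = 0.512). Of 43 genes of G2 and mitosis, 0 rose and 2 fell, 6 had a positive change and the median was −0.45. Those that fell were Ect2, which is needed for cytokinesis, by 1.17 on the log2 scale (± 0.14), and Kif20a, a kinesin of the spindle midzone, by 0.76 (± 0.13). DNA repair gave 2 falls and 1 rise in 50 genes with a median of −0.33: Ercc5, an endonuclease of nucleotide excision repair, fell by 1.20 (± 0.15) and Hus1, part of a checkpoint clamp, by 0.89 (± 0.14), and Ung, uracil DNA glycosylase, rose by 0.69 ± 0.11. With values as deposited the medians were −0.60 for G1 and S phase, −0.85 for G2 and mitosis and −0.65 for DNA repair.

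Of 68 developmental transcription factors of mesenchyme, 3 fell and 1 rose, and the median was −0.12 (−0.27 with values as deposited). Mab21l2, a developmental gene of the eye and limb, had levels of 5.58, 7.99, 7.89 and 6.35 on treated arrays 1 to 4, against 6.86, 9.90, 9.74 and 7.08 on starved arrays 1 to 4. It was much dimmer in pairs 1 and 4 than in pairs 2 and 3 and lower with serum in all of them. Mab21l2 fell by 1.44 on the log2 scale (± 0.21, adjusted p = 0.0415), Zic1 by 0.98 (± 0.11) and Tbx15 by 0.96 (± 0.11), while Foxc2, a forkhead factor, rose by 1.21 ± 0.12. Gli2, a transcription factor of the hedgehog pathway, fell by 0.87 (± 0.14), and with Gas1, which binds hedgehog ligands, it made 2 falls and 0 rises in 47 genes of Wnt, Notch and hedgehog signalling. Gli2 lay near the floor (4.77 in treated and 5.65 in starved cells). Tsc22d1, a leucine zipper gene responsive to TGF-beta, fell by 0.75 (± 0.13).

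Nr2f1, the orphan receptor COUP-TFI, fell by 1.34 on the log2 scale (± 0.18) and Cyp1b1, a cytochrome induced by the aryl hydrocarbon receptor, by 1.25 (± 0.16). Neither overlapped between groups, and they were the 2 calls in 37 genes of aryl hydrocarbon and steroid hormone response. Among 21 circadian genes Dbp, an output factor of the clock, fell by 1.11 (± 0.16), and Nfil3, which binds the same DNA element, rose as given above. Dbp was dim, with means of 5.05 in treated and 6.16 in starved cells. Of 89 genes named Zfp, 3 fell and 1 rose, with a median of −0.18 (−0.54 with values as deposited): Zfp943 fell by 1.08 (± 0.18), Zfp30 by 0.89 (± 0.14) and Zfp503 by 0.78 (± 0.12), and the gene that rose was Zfp36, which acts on RNA. Zfp503 was also dim (5.33 in treated and 6.11 in starved cells).

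The largest fall of any named gene was that of Marcks, a membrane-bound substrate of protein kinase C that binds actin. Its levels were 9.92, 7.70, 7.95 and 9.73 on treated arrays 1 to 4, against 11.38, 9.86, 9.88 and 10.44 on starved arrays 1 to 4. All pairs fell, and the ranges met because pairs 1 and 4 were brighter. Marcks fell by 1.57 on the log2 scale (± 0.24, adjusted p = 0.0417). Rab9, a small GTPase of transport from endosomes to the Golgi, had levels of 8.87, 9.09, 9.11 and 9.31 on treated arrays 1 to 4, against 10.17, 10.71, 11.12 and 10.14 on starved arrays 1 to 4. The 4 treated arrays were close together and all below the starved ones. Rab9 fell by 1.44 (± 0.20, adjusted p = 0.0367), and Rab28 by 0.75 (± 0.11), the 2 calls in 39 Rab genes.

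Signalling and membrane proteins stood among the other large falls. Agtr2, the type 2 receptor of angiotensin II, fell by 1.30 on the log2 scale (± 0.17), Itm2a, a type II membrane protein, by 1.29 (± 0.18), Pkia, an inhibitor of protein kinase A, by 1.25 (± 0.20), Tspyl4 by 1.21 (± 0.17) and Nbr1, a receptor of selective autophagy, by 1.20 (± 0.19). Ulk1, the kinase that starts autophagy, lay just outside the threshold with −0.74 ± 0.13. Among 141 solute carriers 3 rose and 2 fell. Slc39a4, a zinc importer, rose by 0.90 ± 0.13 and Slc66a2 by 0.90 ± 0.14, beside Slc2a1. Slc6a2, the noradrenaline transporter, fell by 0.98 (± 0.14) and Slc29a1, a nucleoside transporter, by 0.90 (± 0.14). Slc6a2 lay near the floor (4.96 in treated and 5.94 in starved cells). Its second probe set went the other way, with 0.24 ± 0.13 (4.82 and 4.58), and was not called.

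Several large lists held no called gene. Since 2.11% of all genes were called, lists of this size hold few or none at that share, and their lack of calls does not set them apart. Each is given with its median after normalisation and then with values as deposited. They were the 71 subunits of oxidative phosphorylation (0.09 and −0.23), 61 mitochondrial ribosomal proteins (0.03 and −0.34), 54 splicing factors (−0.13 and −0.54), 44 proteasome genes with their assembly factors (−0.00 and −0.42), 48 ubiquitin conjugating enzymes and specific proteases (−0.05 and −0.39), 31 Hox genes (−0.10 and −0.34) and 29 genes of cholesterol and fatty acid synthesis (0.07 and −0.37). The members of smallest p were Ndufs1 of complex I (−0.68 ± 0.14, adjusted p = 0.0693), Mrpl17 (0.64 ± 0.16, adjusted p = 0.0907), Hnrnpm (−0.61 ± 0.17, adjusted p = 0.110), Psmg2 (−0.81 ± 0.14, adjusted p = 0.0504), Usp2 (0.99 ± 0.20, adjusted p = 0.0706), Hoxa10 (−0.92 ± 0.16, adjusted p = 0.0527) and Scd2, a stearoyl-CoA desaturase (−1.05 ± 0.19, adjusted p = 0.0576). Psmg2 and Scd2 did not overlap between treated and starved arrays although they missed the threshold. With probe sets of mean intensity below 50 left out, 778 of 6029 probe sets were called (12.9%), of which 369 rose (6.12%) and 409 fell (6.78%). By gene, 269 of 4738 genes rose (5.68%) and 365 fell (7.70%). Among members still tested, falls then numbered 3 of 27 in cholesterol and fatty acid synthesis, 3 of 10 Hox genes and 6 of 40 in G1 and S phase. There were also falls in 2 of 40 proteasome genes, 1 of 51 oxidative phosphorylation subunits and 1 of 54 splicing factors. Rises numbered 2 of 40 among ubiquitin enzymes and proteases and 1 of 47 among mitochondrial ribosomal proteins.

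Of the 174 genes called, 96 were in 1 of the 41 lists and 78 in none, 25 of these higher and 53 lower. The ones described here were chosen after their values were seen, by size. The rises began with Crct1, a gene of the epidermal differentiation cluster (2.02 ± 0.23), and Nppb, the natriuretic peptide BNP (1.81 ± 0.17), and went on with Sstr2, a somatostatin receptor (1.66 ± 0.17), Efhd2, a calcium-binding protein (1.5 ± 0.18), and Gdnf, a neurotrophic factor (1.43 ± 0.15). Enzymes among them were Gfpt2 of the hexosamine pathway (1.32 ± 0.20), the sialyltransferase gene St6galnac4 (1.32 ± 0.20) and Sphk1, which makes sphingosine 1-phosphate (1.23 ± 0.13). Sema4f, Homer1, Ppdpf, Slc35e4 and Il15ra rose by 1.10 to 1.19, where Homer1 was dim (6.33 in treated and 5.15 in starved cells). Falls outside the lists were led by Tmem45a (−1.20 ± 0.16), Acadm, which breaks down medium-chain fatty acids (−1.11 ± 0.17), Rbbp9 (−1.07 ± 0.11), Osbpl1a, an oxysterol-binding protein (−1.07 ± 0.16), and Akap17b (−1.02 ± 0.15). Ttc30b, a protein of transport in cilia, Leprot, Dennd4c, Tm7sf3 and Wdr6 fell by 0.94 to 1.01 on the log2 scale.

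Near the threshold, Arl14ep (−0.68 ± 0.12, adjusted p = 0.0491) and Pnrc2 (adjusted p = 0.0497) were the last genes inside, and Ulk1 (adjusted p = 0.0501) and Ccl3 (adjusted p = 0.0503) the first outside. Some of the widest changes were not called. Picked after their values were seen, these were Serpinb2, a plasminogen activator inhibitor (2.24, adjusted p = 0.0708), Cnn1, calponin 1 (2.06, adjusted p = 0.0576), Vegfa, vascular endothelial growth factor A (2.02, adjusted p = 0.0529) and Itga5, a fibronectin receptor subunit (1.91, adjusted p = 0.0735). RefSeq spans in GRCm38.p6 had a median of 14.9 kb for 88 genes that rose with a span, 22.6 kb for the 85 that fell and 19.2 kb for 8235 measured genes, given as a description.

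Second probe sets bore on several genes. Of 73 called genes with more than 1 probe set, 52 had all of them on the same side and 11 had more than 1 called. Errfi1 rose by 2.12 ± 0.15 in its dimmer probe set (10.33 in treated and 8.21 in starved cells) beside 1.01 in the brightest one, Tnc by 2.13 ± 0.15 beside 0.76, and Rgs16 by 2.03 ± 0.23 beside 1.87. Foxc2 (0.96 ± 0.13) and Rpl10a (0.81 ± 0.14) also rose in a second probe set. Of the 17 second probe sets of named called genes with a mean level above 6, 9 were called and 2 had the opposite sign. Those of opposite sign were near 0, at −0.08 ± 0.16 for Ung (6.76 in treated and 6.85 in starved cells) and 0.04 ± 0.12 for Arl14ep (8.09 and 8.05), and so do not show the change of the brightest probe set. Crct1 had 0.22 ± 0.37 in a second probe set (5.61 and 5.39), Osbpl1a 0.16 ± 0.16 (5.61 and 5.45) and Noct 0.18 ± 0.12 in 1 of its others (6.92 and 6.74). For Scd2, which was not called, a second probe set gave −0.08 ± 0.16 (9.86 and 9.94). The second probe sets of Fgl2 (−0.00), Tgfbi (−0.00), Cyp1b1 (−0.01) and Hk2 (−0.09) lay between 4.02 and 4.42 in both groups, close to the floor. A second probe set of Tpm3 gave −0.39 ± 0.11 near the floor (4.45 in treated and 4.84 in starved cells).

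The study's design asks how far early changes come from synthesis, which total RNA, holding older messages as well, does not show alone. In total RNA, 60 probe sets were called with the same paired fit (0.483%), which by gene were 48 rises (0.582%) and 3 falls (0.0364%). The probe sets that rose in newly transcribed RNA had a median change of 1.08 there, 0.75 in total RNA and 0.75 in amplified total RNA. For the probe sets that fell, newly transcribed RNA had a median of −0.90, total RNA of −0.28 and amplified total RNA of −0.33. The first of each set of 3 values comes from the arrays that chose the probe sets and is a description. The direct test of the difference between the responses in newly transcribed and total RNA called 0 probe sets (limma, smallest adjusted p = 0.161, 1343 with an unadjusted p below 0.05), so that a difference was not shown for any single gene. The 3′ minus 5′ distance of Gapdh on treated arrays was 1.46 to 3.36 in newly transcribed, 0.70 to 2.19 in amplified total and −0.32 to −0.06 in total RNA. Age of the RNA and this distance therefore differ together between newly transcribed and total RNA and cannot be told apart here. Amplified total RNA called 0 probe sets (smallest adjusted p = 0.211, 175 with an unadjusted p below 0.05), with 3 starved arrays and no block.

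Several induced genes had estimates of like size or larger in total RNA. Fosb rose there by 2.38 ± 0.18, Nr4a1 by 2.40 ± 0.19, Phlda1 by 1.96 ± 0.18, Srxn1 by 1.86 ± 0.10 and Gjb2 by 2.41 ± 0.10, each called in total RNA too. Ptgs2 (2.61 ± 0.22), Ereg (2.42 ± 0.13), Errfi1 (2.36 ± 0.28), Egr2 (2.04 ± 0.15) and Noct (1.88 ± 0.14) had a larger estimate in total than in newly transcribed RNA, with adjusted p-values of the difference of 0.279 to 0.466. For Errfi1 this holds for its brightest probe set, while its dimmer one rose by 2.12 ± 0.15 in newly transcribed RNA. Tgfbi (1.13 ± 0.23), Acta1 (0.91 ± 0.25), Crct1 (0.62 ± 0.25) and Cish (0.37 ± 0.16) had smaller estimates in total RNA, with adjusted p-values of the difference of 0.322 to 0.391. Tpm3 (−0.11 ± 0.14), Thy1 (0.07 ± 0.12), Col6a2 (0.01 ± 0.09), Cfl1 (0.08 ± 0.09), Rpl10a (0.03 ± 0.11) and Ppdpf (−0.01 ± 0.13) were near 0 in total RNA while they rose in newly transcribed RNA.

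Among the genes that fell, Ccng2 (−1.21 ± 0.10) and Mab21l2 (−1.20 ± 0.11) were also called lower in total RNA, as was Pnrc2 (−0.99 ± 0.10). Gas1 had −0.78 ± 0.15 and Rab9 −0.90 ± 0.13 in total RNA, short of the threshold. By contrast Marcks (−0.23 ± 0.10), Lum (−0.02 ± 0.09), Ogn (−0.02 ± 0.12), Itm2a (−0.01 ± 0.10), Gas2 (−0.18 ± 0.11) and Agtr2 (−0.19 ± 0.20) had values within 0.23 of 0 in total RNA. The differences between the 2 kinds of RNA were −1.34 for Marcks, −1.36 for Lum, −1.26 for Ogn and −1.28 for Itm2a, with adjusted p-values of 0.279, 0.279, 0.161 and 0.171. None passed the threshold.

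**Figure D4:**
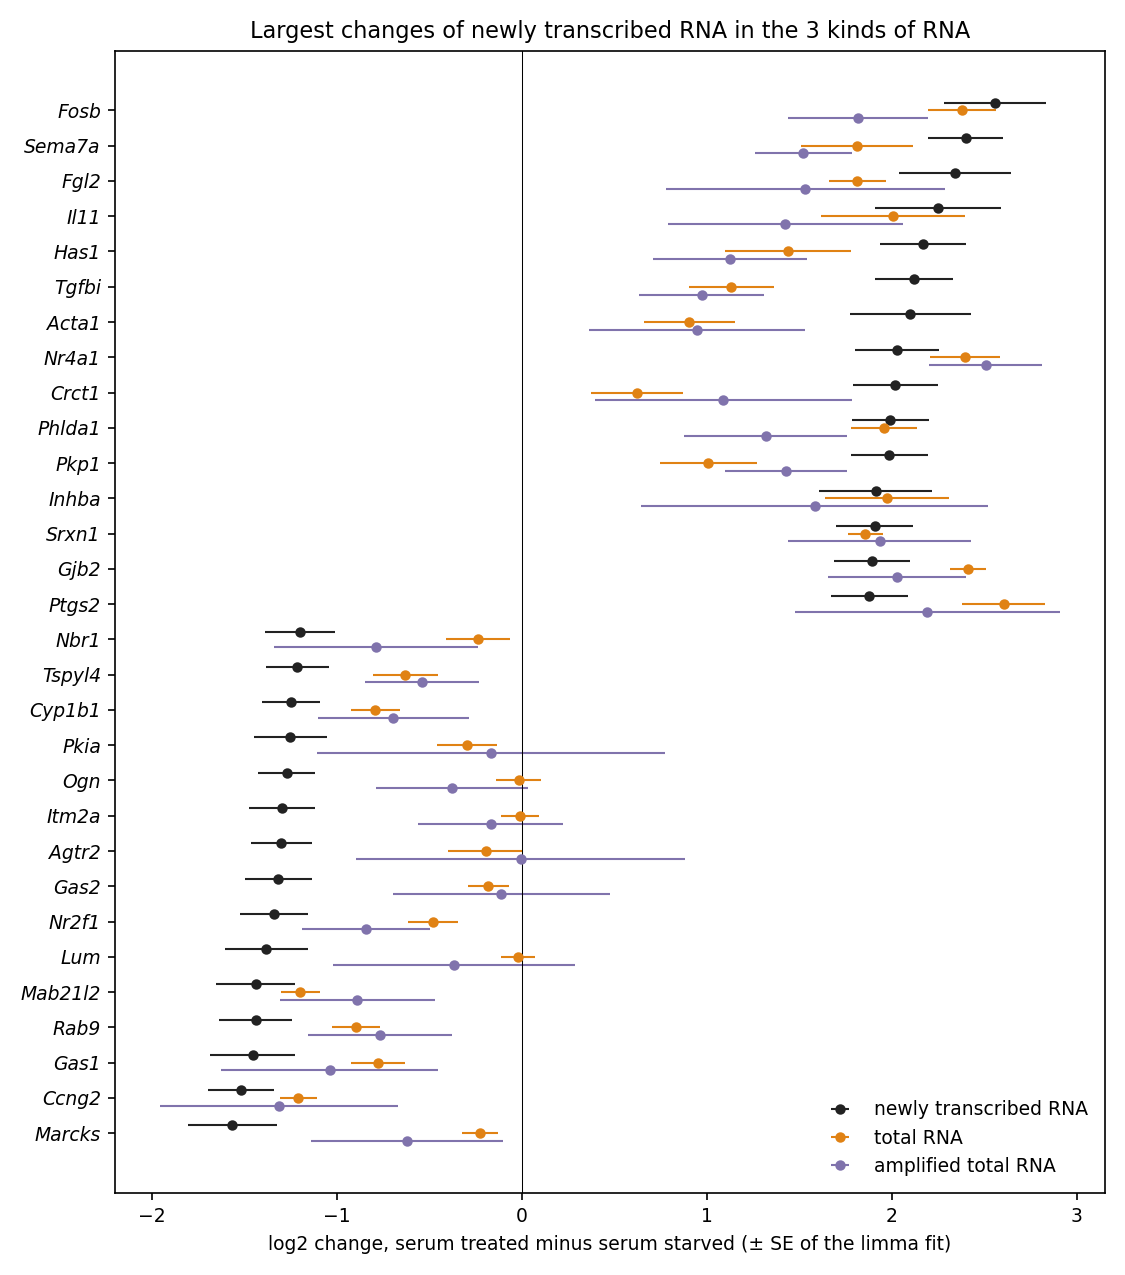
The 15 largest rises and 15 largest falls among called genes in newly transcribed RNA (rows), with their log2 change, serum treated minus serum starved, and its standard error in newly transcribed RNA (black), total RNA (orange) and amplified total RNA (purple) on the horizontal axis. The genes were chosen by the black points; the orange points of Nr4a1, Gjb2 and Ptgs2 lie to the right of the black ones, and those of Ogn, Itm2a and Lum lie close to 0.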

How the data were processed

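Total, amplified total and newly transcribed RNA was hybridised to Affymetrix mouse arrays. The authors deposited 12488 linear signal intensity values, 1 per probe set, for each of 23 arrays; per the labels' protocols, RNA was reverse transcribed, linearly amplified and labelled with biotin by a T7 method, and the labels give this step for all kinds of RNA. How probes were summarised and whether arrays were scaled is not given in the sources used here. The number of arrays limits the precision.

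All 23 arrays were quantile normalised here, because their medians differed, and log2(value + 16) was taken. After leaving out 66 control probe sets, 12422 were tested by lmFit and eBayes of limma 3.58.1 under R 4.3.3 (two-sided, Benjamini-Hochberg over all 12422, threshold 0.05), on the 8 newly transcribed arrays with the replicate number as a block. The numbers in the titles were taken as pairs because the comparison was defined that way. Same-numbered arrays deviated together (correlations of 0.70 to 0.80), and every treated array was closest to the starved array of its own number. Total RNA was fitted in the same way (0.23 to 0.70), amplified total RNA without a block, and the difference of responses as an interaction with the number within each kind of RNA as a block. Files were checked for identical arrays (0 found). The fits were tested on simulated data.

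Gene names come from the platform annotation: 10833 probe sets had 1 symbol, 396 several and 1193 none listed. Named are the 15 largest rises and falls, the called members of each of 41 gene lists (or the one with the smallest p), Fos, Egr1, Jun, Myc, Actb and Ccnd1, the genes next to the threshold, and others where stated; Srf, Gapdh and Atf1 had no probe set of their own symbol alone. The lists and the choice of comparison were made with earlier results of these data known. Promoter sequences are from RefSeq, GRCm38.p6. The alternatives tried were other pseudocounts, scalings and filters on dim probe sets, a prior with an intensity trend, no block, and leaving out each pair.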

Additional observations from a re-analysis of the deposited data

Results flagged for a closer look

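In 18 of 288 groups of 4 arrays examined, 1 array stood far from the other 3, where chance alone picks about 1 group in 20. On treated arrays of newly transcribed RNA the stray levels were 9.26 for Gas2, 8.36 for Ctsk, 11.16 for F3, 6.98 for Mgst1, 6.47 for Zfp503 and 8.22 for Acadm, each above the other 3 arrays. Below the other treated arrays lay 8.38 for Col6a1, 5.67 for Papss1, 9.44 for Foxc2 and 5.19 for Zfp30. On starved arrays the stray levels were 9.42 for Fosb, 7.84 for Tpm3 and 8.27 for Usp2, above the others, and 6.89 for Socs3, 7.72 for Col6a1, 7.59 for Kif20a and 5.47 for Slc39a4, below them. The 3′ minus 5′ distance of the Gapdh controls was 3.36 on treated array 1, against 1.46 to 1.78 on the other treated arrays.

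For 2 genes every pair moved one way in newly transcribed RNA and the other way in total RNA. Hnrnpm, a splicing factor, changed by −0.61 in newly transcribed and 0.19 in total RNA, and the test of the difference gave an adjusted p of 0.319. For Slc6a2 the changes were −0.98 and 0.54, and the adjusted p of their difference was 0.161. Its levels in newly transcribed RNA were near the floor (4.96 in treated and 5.94 in starved cells). A second probe set of Slc6a2 gave 0.24 ± 0.13 there, the opposite sign.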

How the results depend on the processing

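The counts depend on the processing. Of 216 probe sets called (113 higher, 103 lower), 0 were called without the replicate block, 0 with a pseudocount of 1 and 0 with values as deposited, in each direction. With a pseudocount of 64, 124 were called (63 higher, 61 lower), and with arrays scaled to 1 median 295 (118 higher, 177 lower, so the split turned towards falls). With probe sets of mean intensity below 50 left out, 778 of 6029 were called (369 higher, 409 lower). There fewer were tested and adjusted for, and limma also estimated its prior anew from these probe sets alone. Standard errors changed with it, from 0.28 to 0.25 for Fosb and from 0.11 to 0.14 for Myc. The share of each in the higher count was not tested. Quantile normalisation over the 8 arrays alone gave 182, all among the 216, and a trend with a robust prior 226. Without 1 replicate, 0 to 25 were called (0 to 24 higher, 0 to 1 lower). None of the 216 changed sign with other pseudocounts, values as deposited, arrays scaled to 1 median or normalisation over the 8 arrays, and the other settings could not turn them by their construction. The difference of responses between newly transcribed and total RNA, at 0 calls, had 2 without dim probe sets, 2 with the trend and robust prior, and 0 otherwise. Among 142 named genes only Jun turned direction (−0.00, against −0.19 to 0.19 without 1 replicate, with 0.06 without replicate 2 and 0.19 without replicate 3, and 0.024 with arrays scaled to 1 median). With values as deposited the median of all probe sets was −0.18. Where no cause is given for a changed count, the cause was not tested. Dim probe sets near the floor limit what can be seen, and most calls were lost whichever of the 4 pairs was left out.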
